A study of Mus musculus with 6 samples.

Results

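The genes described here are 7 inhibitory receptors and ectoenzymes of T cells that lie outside the CD28 family: Lag3, Havcr2, Tigit, Cd160, Entpd1, Cd101 and Cd38. They were taken by symbol from a list and not by a cut-off on measured values. The list was chosen with earlier results of these data known. Each symbol matched 1 gene, so that they make up 7 of the 32227 genes in the data. All 7 had at least 20 UMIs in each of the 3 tissues.

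The study asked what PD-1, the receptor encoded by Pdcd1, does in CD8 T cells, and sequenced single cells with the PIPseq v3 kit in 6 libraries, 1 for each genotype in thymus, spleen and tumor. Control mice carried Pdcd1fl/fl, a Pdcd1 allele flanked by loxP sites, and Pdcd1 cKO mice combined it with the E8I CD8-Cre transgene [C57BL/6-Tg(Cd8a-cre)1Itan/J], in which a Cd8a enhancer drives Cre in CD8 T cells after positive selection. The mice were on the C57BL/6 background, older than 8 weeks, of both sexes and randomly assigned. Thymus and spleen were taken at baseline, 1 mouse per library, and CD8a+ T cells were enriched by negative selection; tumors were B16-OVA melanomas (B16 cells that express ovalbumin) at day 12, with 3 mice pooled per library, whose infiltrating cells went through dead cell removal and CD8 (TIL) microbeads.

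The libraries of thymus held 1067 barcodes for the label Pdcd1fl/fl and 2674 for Pdcd1 cKO, with 6389966 and 19304377 UMIs. In spleen they held 6929 and 4963 barcodes with 5935926 and 8964626 UMIs, and in tumor 457 and 561 barcodes with 9401747 and 7924590 UMIs. Of the spleen barcodes, 5267 of the library labelled Pdcd1fl/fl and 0 of the other had fewer than 1000 UMIs. The cell filter thus removed most barcodes of the former and few of the latter. After the cell filter of the study and without clusters named as another lineage, 1067 and 2635 thymic, 1478 and 4913 splenic, and 287 and 469 tumor cells were used. Their median depth was 4361 and 5417 UMIs in thymus, 1320.5 and 1614 in spleen, and 11027 and 9107 in tumor. Of all used cells, 55.2% and 66.5% had a UMI of Cd8a or Cd8b1 in thymus, 58.4% and 78.9% in spleen, and 95.5% and 97.4% in tumor. A thymic cluster of 115 cells led by Dcn and a splenic one of 87 cells led by Prtn3 and Mpo were not named as another lineage by the marker rule and stayed in; without them 4 of the 7 genes were past 2-fold in thymus and 4 in spleen, with medians of 1.44 and 1.26. The 2 spleen libraries shared 2 cell barcodes and the other pairs of libraries shared 0.

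Pdcd1 itself went against the labels in thymus and spleen. It had 12 UMIs in the thymus library labelled Pdcd1fl/fl, or 1.88 CPM (counts scaled to the total UMIs of the used cells), and 131 UMIs, or 6.84 CPM, for the label Pdcd1 cKO. In spleen it had 1 UMI (0.450 CPM) and 104 UMIs (11.7 CPM), and in tumor 702 UMIs (183 CPM) and 801 UMIs (152 CPM). The log2 ratio of the library labelled Pdcd1 cKO over the one labelled Pdcd1fl/fl was 1.87 (95% interval 1.01 to 2.85) in thymus, 4.70 (2.19 to 10.02) in spleen and -0.27 (-0.41 to -0.12) in tumor. Without a tumor cluster of 221 cells, 156 of them from the library labelled Pdcd1fl/fl, the tumor ratio was 0.34 (0.09 to 0.60). The counts are per gene, so they do not show which part of Pdcd1 was read. The paper reports the loss of PD-1 in Pdcd1 cKO mice by flow cytometry, and higher expression of effector genes. Here effector genes were more than 2-fold higher for that label in 7 of 9 cases in thymus (1 lower) and 8 of 9 in spleen. The RNA results of the paper come from the same libraries with the same labels, so these counts are no check of the labels. Why Pdcd1 went against the labels was not tested. Every direction below therefore rests on the labels as given, and with 1 library per label no result can be given without these libraries. Ctla4, another inhibitory receptor of the CD28 family, had 125 and 208 CPM in thymus, 226 and 252 CPM in spleen, and 626 and 689 CPM in tumor.

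Inhibitory receptors are switched on after T cells meet antigen, and lasting stimulation, as in tumors, makes cells carry several of them at once. LAG-3 binds MHC class II and the secreted protein FGL1. TIM-3 (Havcr2) binds galectin-9, CEACAM1 and HMGB1, TIGIT binds the poliovirus receptor CD155 in competition with the activating receptor CD226, and CD160 binds HVEM, encoded by Tnfrsf14. CD39 (Entpd1) and CD38 are enzymes at the cell surface that break down extracellular ATP and NAD, and CD101 is an immunoglobulin-family receptor found on terminally exhausted cells.

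In thymus, 4 of the 7 genes were more than 2-fold higher in the library labelled Pdcd1 cKO and 0 were more than 2-fold lower, where 14.1% of 14381 genes with at least 20 UMIs lay past 2-fold in either direction. These 4 were Lag3, Tigit, Cd101 and Cd38, and the median log2 ratio of the 7 genes was 1.46 beside -0.02 for all genes. In spleen, 4 of the 7 were more than 2-fold higher and 0 lower, where 12.0% of 12256 genes were past 2-fold: Lag3, Cd160, Cd101 and Cd38, the last at a log2 ratio of 1.001. The median of the 7 was 1.001 in spleen beside 0.17 for all genes. In tumor, 2 of the 7, Cd101 and Cd38, were more than 2-fold higher and 0 lower, where 13.9% of 10719 genes were past 2-fold, and the median was 0.13 beside 0.09. Since each label has 1 library per tissue, the spread between mice is unknown, and all intervals here cover counting error only. Without 1 cluster of cells at a time, an alternative chosen after seeing the data, 3 to 5 of the genes were past 2-fold in thymus with medians of 0.26 to 2.11, 2 to 5 in spleen with medians of 0.70 to 1.48, and 0 to 2 in tumor with medians of 0.07 to 0.54. These counts take both directions: Havcr2 was more than 2-fold lower without a thymic cluster of 354 cells and Tigit without a tumor cluster of 221 cells. With a stricter cell filter, 2 genes were past 2-fold in spleen, with a median of 0.59. With no cell filter, 4 were more than 2-fold higher there, with a median of 1.48.

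**Figure D1:**
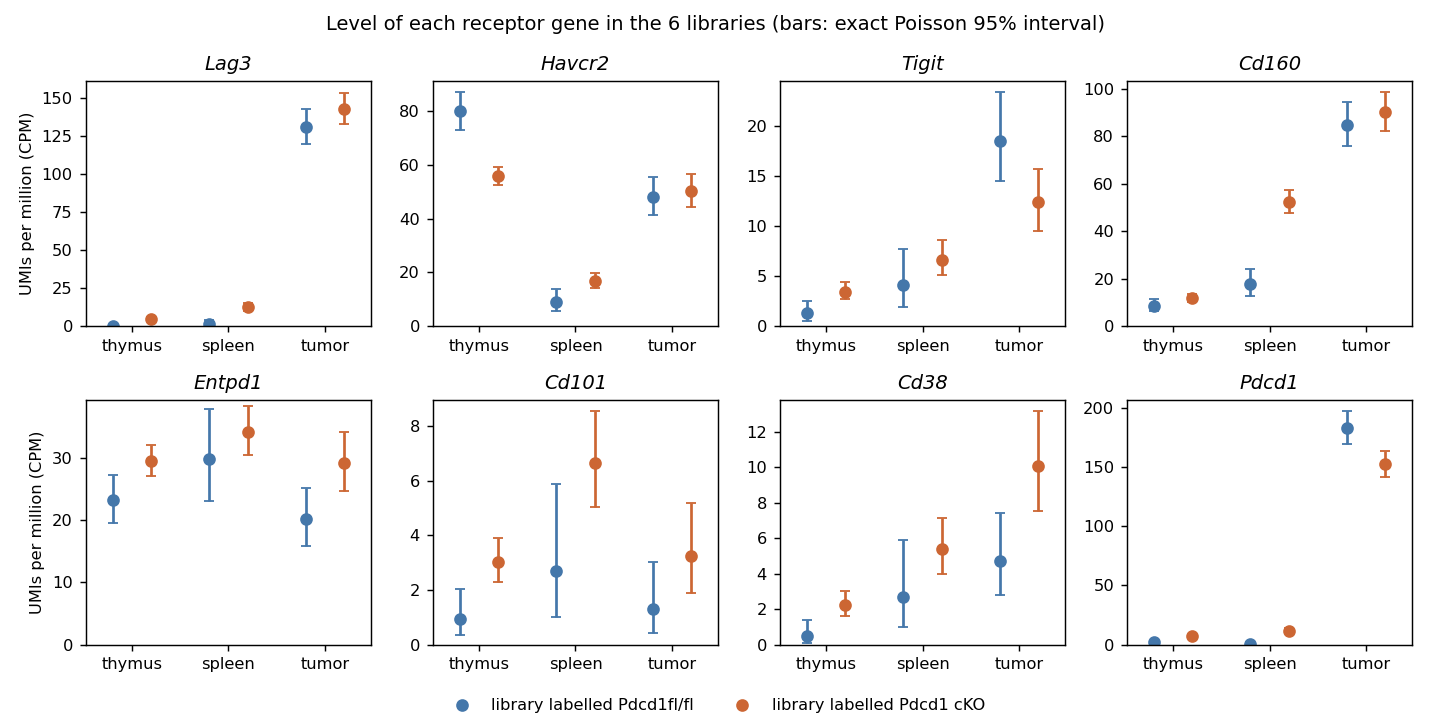
Level of each of the 7 genes and of Pdcd1 in the 6 libraries, in CPM, with exact Poisson 95% intervals. Lag3 ranges from 0 CPM in the thymus library labelled Pdcd1fl/fl to 143 CPM in the tumor library labelled Pdcd1 cKO, while Entpd1 stays between 20.1 and 34.1 CPM.

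Lag3 had the widest range over the libraries. The thymus library labelled Pdcd1fl/fl gave 0 UMIs, where a count of 0 allows up to 0.469 CPM by a floor of 3 counts and 0.577 CPM by the exact upper limit, and the one labelled Pdcd1 cKO gave 92 UMIs or 4.81 CPM (95% interval 3.87 to 5.89). In spleen it had 3 UMIs (1.35 CPM) and 110 UMIs (12.4 CPM), and in tumor 502 UMIs (131 CPM) and 753 UMIs (143 CPM). Both tumor libraries were above the other 4, and their intervals overlapped. Taken against a floor of 3 counts in the empty library, Lag3 was 10.2-fold higher in the thymus library labelled Pdcd1 cKO. The exact lower 95% limit of the ratio of 0 and 92 UMIs was 8.16-fold. Its log2 ratio was 3.197 (1.61 to 5.497) in spleen and 0.13 (-0.04 to 0.29) in tumor, where it was 0.00 with totals free of mitochondrial, ribosomal protein and Malat1 counts and 0.81 with melanoma-like and macrophage-like cells kept. Lag3 lies next to Cd4 on the same strand, 6561 bases away, and the libraries of CD8-enriched cells held 6 and 49 UMIs of Cd4 in thymus and 2 and 32 in spleen.

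Havcr2 was the gene of the 7 with its highest level in thymus. The thymus library labelled Pdcd1fl/fl held 511 UMIs (80.0 CPM, 73.2 to 87.2), and the one labelled Pdcd1 cKO held 1069 (55.8 CPM, 52.5 to 59.3). The tumor libraries had 184 and 264 UMIs (48.0 and 50.2 CPM), and the spleen libraries 20 and 150 UMIs (9.01 and 16.9 CPM). Thymus and tumor were thus high and spleen was low, and the thymus library labelled Pdcd1 cKO overlapped with both tumor libraries. The log2 ratio was -0.52 (-0.67 to -0.36) in thymus, 0.91 (0.23 to 1.66) in spleen and 0.06 (-0.21 to 0.34) in tumor, where other scalings gave -0.06 and -0.02 and leaving out the cluster of 124 naive or mature T-like cells gave -0.01. In thymus the cells of clusters with more UMIs of Dntt, an enzyme of immature thymocytes, than of Cd8b1 made up 77.8% of the library labelled Pdcd1fl/fl and 51.0% of the other. Havcr2 had 88.9 and 75.2 CPM in those cells and 27.8 and 23.7 CPM in the remaining thymic cells, and its ratio in the remaining cells was -0.23. Without the cluster of 512 cells of which 509 came from the thymus library labelled Pdcd1fl/fl, the direction turned, with a ratio of 0.09 (-0.17 to 0.36), and without a cluster of 354 cells, 350 of them from the other library, it was -1.03 (-1.21 to -0.85). With the stricter cell filter its ratio in spleen was 0.07.

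Tigit was highest in tumor, where the library labelled Pdcd1fl/fl held 71 UMIs (18.5 CPM, 14.5 to 23.4) and the one labelled Pdcd1 cKO held 65 (12.4 CPM, 9.53 to 15.7). It had 9 and 59 UMIs in spleen (4.05 and 6.65 CPM) and 8 and 66 UMIs in thymus (1.25 and 3.45 CPM). Its log2 ratio was 1.46 (0.40 to 2.73) in thymus, 0.71 (-0.31 to 1.91) in spleen and -0.58 (-1.09 to -0.08) in tumor. The thymus ratio was 0.55 (-0.65 to 2.04) without the cluster of 512 cells. The tumor ratio was 0.15 when melanoma-like and macrophage-like cells were kept, and -0.28 (-0.86 to 0.31) without the cluster of 124 cells. It was -1.05 (-1.69 to -0.39) without the cluster of 221 cells and -0.75 (-1.46 to -0.07) without that of 258 cells. Tumor cells were selected with CD8 microbeads, and Foxp3, a marker of regulatory CD4 T cells, had 25 and 13 UMIs in the tumor libraries. Without the tumor cluster of 16 cells led by Gm37273, Ano1, Il2ra, Tnfrsf4 and Ass1, Tigit had 67 and 62 UMIs. Its ratio then stayed at -0.58. Whether that cluster held the Foxp3 UMIs is not given here, and the part of CD4 T cells in the ratio was not tested.

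Cd160 encodes a receptor that is held in the membrane by a lipid anchor in its common form. In tumor it had 325 UMIs (84.8 CPM, 75.8 to 94.5) and 475 UMIs (90.3 CPM, 82.3 to 98.8), with overlapping intervals. The spleen library labelled Pdcd1fl/fl held 39 (17.6 CPM) and the one labelled Pdcd1 cKO 466 (52.5 CPM), while the thymus libraries held 55 and 225 (8.61 and 11.8 CPM). The step between the labels was therefore seen in spleen, where the log2 ratio was 1.58 (1.11 to 2.09) and lay between 1.402 and 1.695 under the alternatives of filter, scaling, CD8 detection and depth, and between 1.14 and 1.76 without 1 cluster at a time. The ratio was 0.45 (0.02 to 0.90) in thymus and 0.09 (-0.12 to 0.30) in tumor, where it was -0.03 with totals free of mitochondrial, ribosomal protein and Malat1 counts and 0.78 with melanoma-like and macrophage-like cells kept. In thymus it was -0.39 (-0.96 to 0.22) without the clusters rich in Dntt and -0.42 (-0.91 to 0.10) without the cluster of 512 cells, and 1.19 (0.63 to 1.79) without that of 168 effector or memory T-like cells, alternatives chosen after seeing the data.

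Entpd1 varied least over the libraries. It had 148 UMIs (23.2 CPM) and 563 UMIs (29.4 CPM) in thymus, 66 UMIs (29.7 CPM) and 303 UMIs (34.1 CPM) in spleen, and 77 UMIs (20.1 CPM) and 153 UMIs (29.1 CPM) in tumor. Ranked by level, neighbouring libraries overlapped throughout, while the highest and lowest lay apart. The log2 ratio was 0.34 (0.08 to 0.62) in thymus, where it was 0.05 (-0.30 to 0.43) without the cluster of 512 cells. It was 0.20 (-0.19 to 0.61) in spleen, where the stricter filter gave -0.34 and leaving out a cluster of 1058 cells, all from the library labelled Pdcd1fl/fl, gave -0.24, and 0.53 (0.13 to 0.95) in tumor.

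For Cd38, the other ectoenzyme, the tumor library labelled Pdcd1fl/fl held 18 UMIs (4.69 CPM, 2.78 to 7.42) and the one labelled Pdcd1 cKO 53 (10.1 CPM, 7.54 to 13.2), its highest level. It had 6 and 48 UMIs in spleen (2.70 and 5.41 CPM) and 3 and 43 UMIs in thymus (0.469 and 2.25 CPM). The log2 ratios were 2.26 (0.61 to 4.59) in thymus, 1.001 (-0.23 to 2.52) in spleen and 1.10 (0.31 to 1.96) in tumor. In spleen Cd38 fell below 2-fold with totals free of mitochondrial, ribosomal protein and Malat1 counts (0.87), with median of ratios (0.82), with all filtered cells (0.99), with the stricter cell filter (0.59) and without the 5% of cells with most UMIs (0.74). It was 1.404 in cells with a UMI of Cd8a or Cd8b1 and 1.82 with no filter. With melanoma-like and macrophage-like cells kept, the tumor ratio of Cd38 was 0.09. Below 2-fold too, it was 0.71 (-0.37 to 1.79) without the tumor cluster of 258 cells and 0.87 (0.06 to 1.76) without that of 124 cells. Without the cluster of 221 cells it was 1.87 (0.42 to 3.80).

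Cd101 had few UMIs everywhere: 6 and 58 in thymus (0.939 and 3.03 CPM), 6 and 59 in spleen (2.70 and 6.65 CPM), and 5 and 17 in tumor (1.30 and 3.23 CPM). The library labelled Pdcd1 cKO was the higher one in each tissue. The log2 ratios were 1.69 (0.48 to 3.19), 1.30 (0.09 to 2.80) and 1.31 (-0.19 to 3.10), and the interval in tumor held 0. In spleen Cd101 fell below 2-fold without the cluster of 1058 cells, at 0.57 (-1.04 to 2.89). In tumor it was 0.94 (-0.58 to 2.74) without the cluster of 124 cells and 0.91 without one of 137 cells (5 and 11 UMIs left). It was 2.25 there without the cluster of 221 cells (1 and 16 UMIs left).

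**Figure D2:**
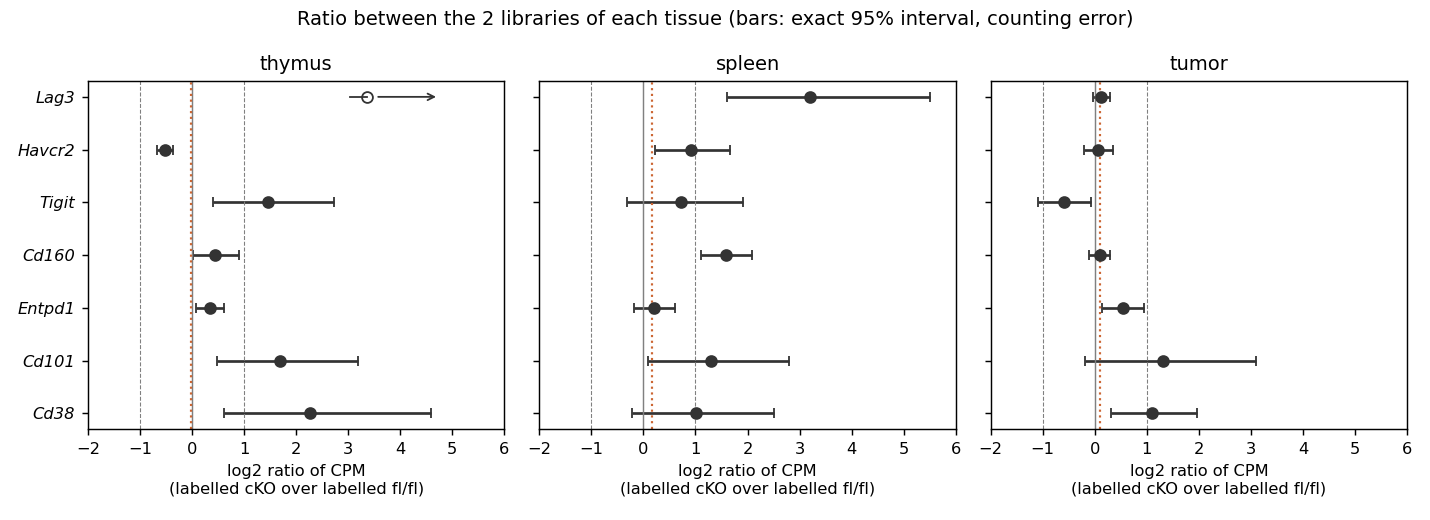
Log2 ratio of the library labelled Pdcd1 cKO over the library labelled Pdcd1fl/fl for the 7 genes in each tissue. Exact 95% intervals are drawn, with the median of all genes as a dotted line and 2-fold as dashed lines. The open circle is Lag3 in thymus taken against a floor of 3 counts (3.36), and Havcr2 in thymus (-0.52) and Tigit in tumor (-0.58) are the members below 0.

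Some markers of other cell types also differed between the used cells of the libraries. In thymus, 4 of 4 fibroblast genes were detected in both libraries, summing to 64.0 CPM for the label Pdcd1fl/fl and 20.4 CPM for Pdcd1 cKO, with Dcn most abundant at 302 and 299 UMIs. Natural killer genes went with the members there, at 9.08 CPM (3 of 5, Ncr1 and Klra4 at 0) and 25.8 CPM (5 of 5), as did erythroid genes, at 0.156 CPM (1 of 3, Hba-a1 and Hba-a2 at 0) and 7.21 CPM (3 of 3), led by Hbb-bs. Natural killer genes also did in spleen, at 64.4 CPM (4 of 5, Ncr1 at 0) and 115 CPM (5 of 5), led by Eomes in each of these libraries. Eomes held 39 of their 58 and 395 of their 494 UMIs in thymus, and 118 of 143 and 833 of 1019 in spleen. It also served here as an effector or memory T marker and as an exhaustion and activation factor. In spleen, macrophage genes summed to 10.8 CPM (6 of 9, Csf1r, C1qa and C1qb at 0, led by Fcgr3) and 31.0 CPM (8 of 9, C1qa at 0, led by Apoe), and fibroblast genes to 1.35 CPM (2 of 4, Col1a1 and Dcn at 0, led by Col1a2) and 8.11 CPM (4 of 4, led by Col3a1). Granulocyte or progenitor genes summed there to 1.80 CPM (1 of 5, Prtn3) and 68.8 CPM (3 of 5, led by Mpo, with S100a8 and S100a9 at 0), and erythroid genes to 0.901 CPM (2 of 3, Hba-a1 at 0) and 26.0 CPM (3 of 3, led by Hbb-bs). In tumor, melanoma genes summed to 242 and 166 CPM (5 of 5 in both, led by Dct and by Pmel). Macrophage genes summed to 44.3 CPM (8 of 9, Csf1r at 0, led by Apoe) and 68.6 CPM (9 of 9, led by Lyz2) there, and dendritic genes to 20.9 CPM (5 of 8, with Xcr1, Clec9a and Ccl22 at 0) and 50.6 CPM (4 of 8, with Cd209a at 0 too), led by H2-Ab1. B or plasma genes summed to 189 CPM (4 of 6) and 692 CPM (6 of 6) in spleen. In tumor they summed to 69.9 CPM (5 of 6) and 215 CPM (4 of 6). In thymus they ran the other way, at 152 CPM (4 of 6) and 105 CPM (6 of 6). The part of these genes in the results was not tested, and not every list is given here.

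In the thymus 1 cluster held most UMIs of Lag3 and Tigit. Cells were clustered without the 7 genes and Pdcd1 among the features, and a cluster of 200 effector or memory T-like cells, 199 of them from the library labelled Pdcd1 cKO, held the highest level of 6 of the 7. It held 62 of the 92 thymic UMIs of Lag3 (67.4%, 70.3 CPM), 39 of Tigit (52.7%, 44.2 CPM), 23 of the 46 of Cd38 (26.1 CPM), 19 of Cd101 (29.7%, 21.5 CPM), 45 of Cd160 (16.1%, 51.0 CPM) and 61 of Entpd1 (8.58%, 69.2 CPM). Its leading genes by fold over other thymic cells were Ccl3, Lag3, Gzmk, S100a4 and Pdcd1. The effector or memory T-like cells of the library labelled Pdcd1fl/fl sat in another cluster, with 162 cells from that library and 6 from the other, where Lag3 had 0 UMIs, Tigit 6.07 CPM and Cd160 37.9 CPM. Another effector or memory T-like cluster of 94 cells, 90 of them from the library labelled Pdcd1 cKO, also had 0 UMIs of Lag3, as well as 0 of Tigit and of Pdcd1, and 27.7 CPM of Cd160. Because each of these clusters came almost entirely from 1 library, the cluster and the library cannot be told apart. Without the cluster of 200 cells, the thymic log2 ratio of Tigit was 0.24 (-0.94 to 1.59), that of Cd101 1.18 (-0.07 to 2.72) and that of Cd38 1.22 (-0.53 to 3.61). Lag3 then had 0 and 30 UMIs, and Pdcd1 12 and 43 with a ratio of 0.33 (-0.62 to 1.38).

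Havcr2 followed other thymic cells. It had 102 CPM (72.6 to 138) in a cluster of 43 cells, 98.1 CPM (88.5 to 108) in that of 512 and 97.7 CPM (89.8 to 106) in that of 354, levels that overlapped, and 31.7 CPM in the cluster of 200 cells. The clusters of 512 and 354 cells held 24.1% and 35.6% of its thymic UMIs. The cluster with 102 CPM was led by Gm36264, Bc1, Spidr, Tbc1d22b and 1700034P13Rik and had more Dntt than Cd8b1 UMIs.

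In the spleen, a cluster of 410 effector or memory T-like cells, 408 of them from the library labelled Pdcd1 cKO, held the highest level of 6 of the 7 genes among clusters of at least 20 cells at resolution 0.8. Cd101, with 9 UMIs there, was highest in another cluster at resolutions 0.4 and 1.2. Lag3 had 75.3 CPM there, Havcr2 34.4, Tigit 19.6, Cd160 157, Cd101 14.7 and Cd38 21.3 CPM. This cluster was led by Gzma, Gzmk, Trgc2, S100a4 and Ccl3. Entpd1 was highest at 70.3 CPM (36.3 to 123) in 96 cells led by Prr16, Gm49313, Rftn1, Scaf11 and Rgs1, and had 67.1 CPM (48.1 to 91.0) in the cluster of 410, so these levels overlapped. Without the cluster of 410 cells the splenic log2 ratio of Lag3 was 2.52 (0.91 to 4.83), that of Cd160 1.35 (0.87 to 1.86), that of Cd101 1.16 (-0.06 to 2.67) and that of Cd38 0.65 (-0.62 to 2.19), which is below 2-fold. Most used cells of the library labelled Pdcd1fl/fl, 1058 of 1478, formed a cluster with 0 cells of the other library.

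In the tumor the 4 T cell clusters of at least 20 cells differed less in Lag3, at 122 to 157 CPM, and in Havcr2, at 38.2 to 54.4 CPM. Entpd1 and Cd38 were highest in the cluster of 258 effector or memory T-like cells (12 and 246 per library), at 36.4 CPM (29.9 to 43.9) and 12.7 CPM (8.98 to 17.4). In the 124 naive or mature T-like cells (95 and 29), Entpd1 had 8.19 CPM (3.75 to 15.6) and Cd38 1.82 CPM (0.220 to 6.58). Tigit ran the other way, with 26.4 CPM (17.7 to 37.9) in the naive or mature T-like cells and 8.78 CPM (4.21 to 16.1) in a cluster of 137 effector or memory T-like cells. That cluster, led by Gzme, Cd7, Ccl5, Sdk1 and S100a6, had 157 CPM of Lag3 (135 to 182) beside 156 CPM (133 to 181) in the naive or mature T-like cells, so no order is read. Cd160 had 99.1 CPM in 221 cells led by Gfm2, Nhsl2, Slc2a12, Malt1 and Gzmc, and 94.8 CPM in the cluster of 137. At resolution 1.2, Lag3 was highest, at 189 CPM (161 to 220), in the 97 cells with the highest Tigit level, and at 0.4 Cd160 was highest in another cluster. The cluster with the highest Entpd1 was led by Trgc2, Gzma, 2900026A02Rik, Gzmk and Cd7.

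**Figure D3:**
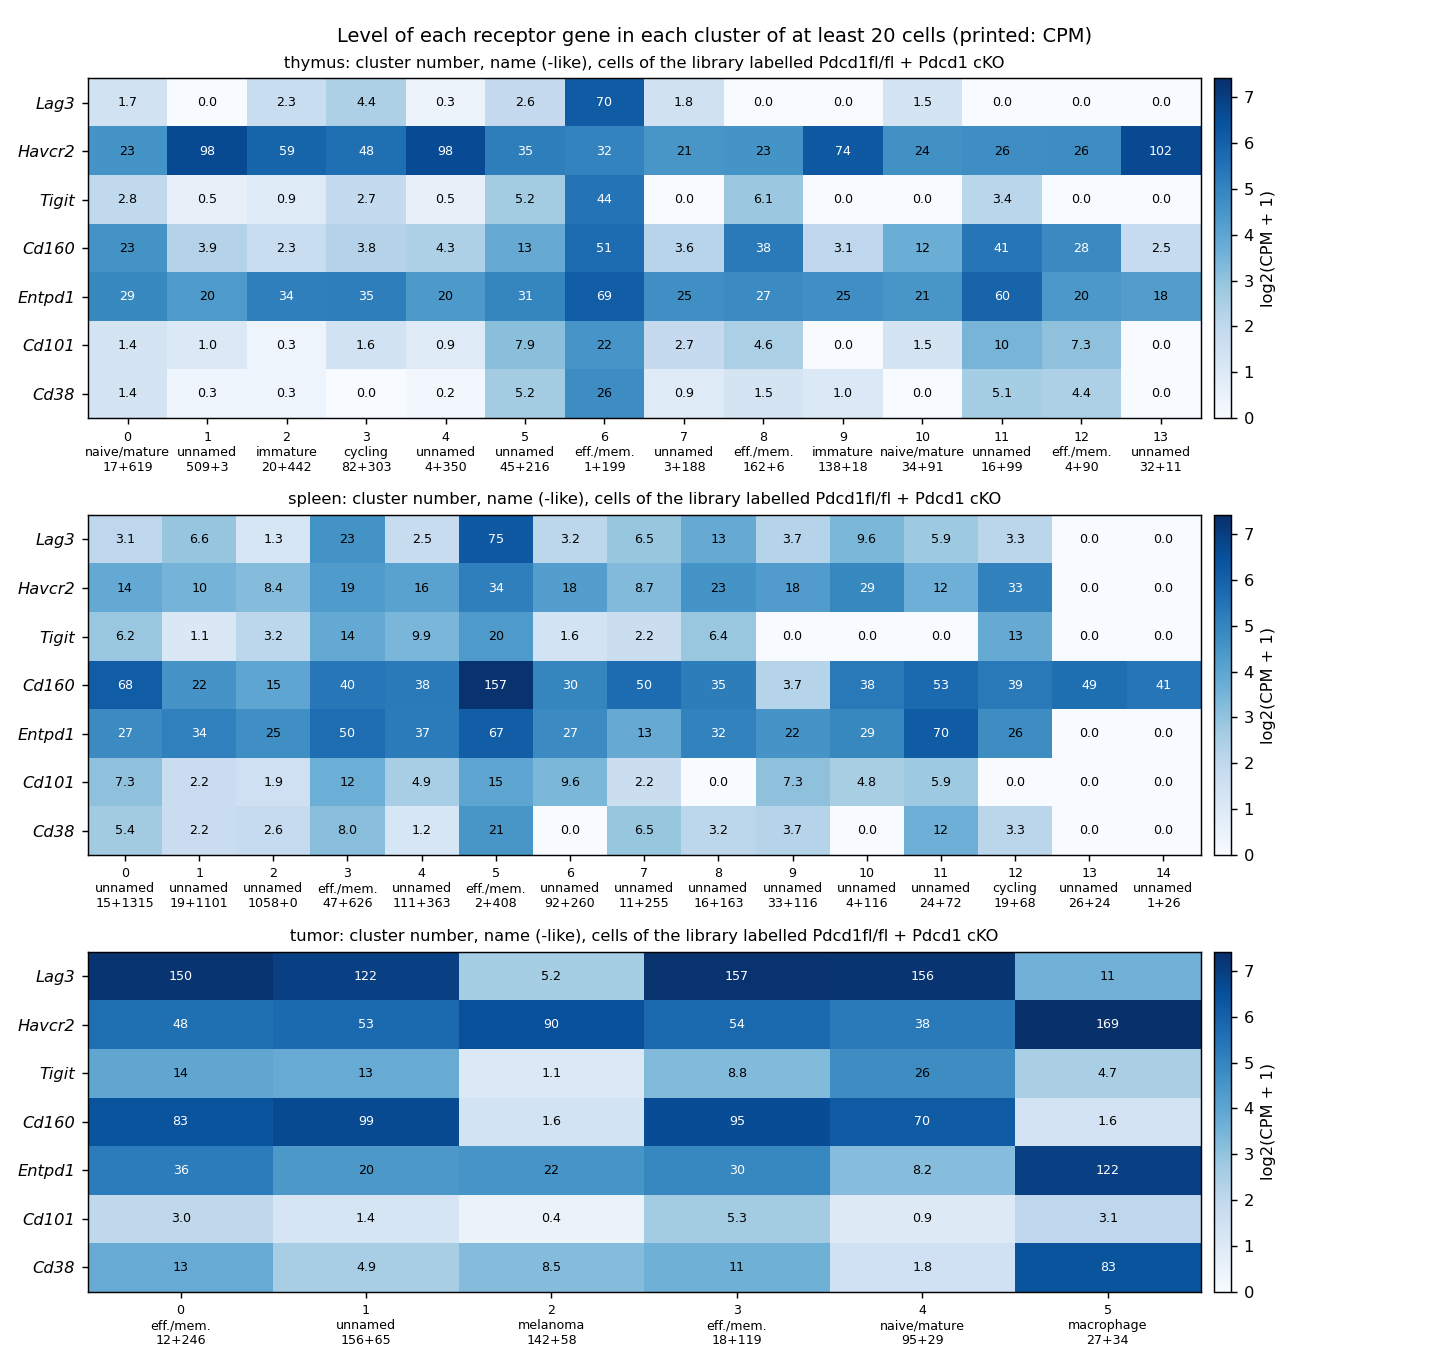
Level of the 7 genes in each cluster of at least 20 cells, by tissue, as a heat map of log2(CPM + 1) with the CPM printed. Each cluster is labelled with its name and the cells from each library. In thymus 1 cluster of 200 cells reaches 70.3 CPM of Lag3, and in tumor the melanoma-like and macrophage-like clusters reach 90.3 and 169 CPM of Havcr2 with 5.15 and 10.97 CPM of Lag3.

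The left-out cells of the tumors carried their own set. The 61 macrophage-like cells had 169 CPM of Havcr2, 122 CPM of Entpd1 and 83.1 CPM of Cd38, each above the tumor T cell clusters. The 200 melanoma-like cells had 90.3 CPM of Havcr2, 21.8 CPM of Entpd1 and 8.45 CPM of Cd38. Lag3, Tigit and Cd160 were low in both, at 5.15, 1.06 and 1.58 CPM in melanoma-like and 10.97, 4.70 and 1.57 CPM in macrophage-like cells.

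Shares of cells with a UMI were taken after thinning every cell to 1000 UMIs, because depth differed between libraries. Lag3 was found in 0 of 1067 thymic cells of the library labelled Pdcd1fl/fl, which allows up to 0.281% by a floor of 3 cells and 0.345% by the exact upper limit, and in 0.873% of cells of the one labelled Pdcd1 cKO (unthinned 0% and 2.66%). In spleen it was found in 0.203% and 1.201% (unthinned 0.203% and 1.83%), and in tumor in 12.2% and 13.2% (unthinned 66.2% and 71.2%). Melanoma-like cells, which should lack Lag3, gave 0% of 142 cells (median 31889 UMIs) and 1.72% of 58 cells (median 35962.5 UMIs) after thinning, but 10.6% and 25.9% unthinned. The tumor T cell shares were thus above the background at equal depth. For thymus and spleen these cells of other libraries give no background. The thymic clusters rich in Dntt gave 0% (830 cells, median 5031 UMIs) and 0.372% (1343 cells, median 5662 UMIs).

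Cd160 was found in 1.03% and 1.78% of thymic, 1.62% and 4.44% of splenic, and 4.53% and 8.74% of tumor cells after thinning (unthinned 4.22% and 6.94%, 2.37% and 7.80%, 45.6% and 51.0%). For Cd160 the order of the 2 tumor shares turned at 2000 UMIs (15.3% and 14.1%) and turned back at 5000 UMIs (23.3% and 29.9%). Its melanoma-like background was 0% and 0% after thinning, which allows up to 2.11% and 5.17% by a floor of 3 cells and 2.56% and 6.16% by the exact upper limit, and 4.23% and 10.3% unthinned. Havcr2 was found in 5.34% and 3.76% of thymic, 0.812% and 1.71% of splenic, and 5.57% and 2.77% of tumor cells (unthinned 30.3% and 23.9%, 1.35% and 2.93%, 37.6% and 38.2%). Melanoma-like cells gave 7.75% and 15.5% for Havcr2 after thinning, above the tumor T cells, and so give no background for this gene. Its 2 tumor shares also changed order with depth, at 15.7% and 19.6% after thinning to 5000 UMIs.

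Tigit was found in 0.187% and 0.493% of thymic, 0.541% and 0.651% of splenic, and 4.53% and 0.426% of tumor cells (unthinned 0.656% and 2.20%, 0.609% and 1.08%, 20.6% and 12.2%). The gap between the tumor shares of Tigit was smaller at 2000 UMIs (3.83% and 1.71%) and at 5000 UMIs (8.36% and 5.97%). Melanoma-like cells had 0% of Tigit after thinning, and 3.52% and 5.17% unthinned. Entpd1 was found in 2.34% to 3.64% of cells in all 6 libraries (unthinned 3.92% to 23.9%), beside 2.11% and 1.72% of melanoma-like cells; they too are no sure background, with 50.7% and 55.2% unthinned. Cd101 and Cd38 were found in 0% to 0.672% and 0% to 1.28% of cells (unthinned 0.338% to 3.41% and 0.281% to 9.38%). For Cd38, 28.2% and 15.5% of melanoma-like cells had a UMI unthinned.

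The share of cells with several of the 7 genes was highest in tumor. After thinning to 1000 UMIs, 2 or more of the genes were found in 0.187% and 0.911% of thymic, 0.135% and 0.936% of splenic, and 3.83% and 3.198% of tumor cells. Unthinned, they were found in 6.65% and 10.7%, 0.271% and 2.10%, and 61.3% and 67.6%, and 1 tumor cell of the library labelled Pdcd1 cKO held all 7. At 5000 UMIs, a depth chosen after seeing the data, 71 of 287 tumor cells (24.7%, 19.9% to 30.2%) and 178 of 469 (38.0%, 33.5% to 42.5%) held 2 or more, beside 3.54% and 5.91% of the thymic cells deep enough. At 2000 UMIs the tumor shares were 10.8% and 9.81%, so the order of the 2 tumor libraries changed with depth and none is read from it. Spleen was too shallow for 5000 UMIs, and at 2000 UMIs gave 0% of 182 cells, which allows up to 1.65% by a floor of 3 cells and 2.01% by the exact upper limit, and 2.02% of 1384. A droplet that took up 2 cells would raise such shares. Without the 5% of cells with most UMIs in each library, a group that may hold such doublets, the shares at 1000 UMIs were 0.0987% and 0.439% in thymus, 0.0712% and 0.857% in spleen, and 1.84% and 3.15% in tumor.

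Of the 21 pairs of the 7 genes, 2 and 15 were seen in at least 1 thymic cell after thinning to 1000 UMIs, 2 and 17 in spleen, and 8 and 5 in tumor. Unthinned, the leading pair was Havcr2 with Entpd1 in thymus (52 and 134 cells), Cd160 with Entpd1 in the spleen library labelled Pdcd1 cKO (29 cells; 2 in the other, tied with Havcr2 and Entpd1) and Lag3 with Cd160 in tumor (104 and 181 cells). Lag3 and Tigit went together in the thymus library labelled Pdcd1 cKO: at 5000 UMIs, 5 of 21 cells with Lag3 had Tigit (23.8%, 8.22% to 47.2%), against 1.17% (0.684% to 1.87%) of cells without Lag3. At 1000 UMIs that pair was seen in 2 cells, 8.70% of cells with Lag3 against 0.421% of the rest. In the spleen library labelled Pdcd1 cKO, 4 of 84 cells with Havcr2 had Tigit after thinning to 1000 UMIs (4.76%, 1.31% to 11.7%), against 0.580% (0.386% to 0.837%) of the rest. Unthinned the intervals overlapped, at 3.47% (1.14% to 7.92%) and 1.01% (0.743% to 1.33%).

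In tumor no pair with at least 20 cells of each gene had intervals apart at 5000 UMIs, with few cells for the rarer genes. At 5000 UMIs, Cd160 was found in 25.4% (18.0% to 34.1%) of cells with Lag3 and 21.8% (15.8% to 28.9%) of cells without it for the label Pdcd1fl/fl, against 30.6% and 29.0% for the label Pdcd1 cKO. Havcr2 was found in 16.4% of cells with Lag3 and 15.2% without in the former, and in 15.9% (11.6% to 21.1%) and 23.7% (18.3% to 29.8%) in the latter. Cd38 was found there in 14.3% (4.03% to 32.7%) of cells with Tigit and 4.99% (3.15% to 7.46%) of the rest. Unthinned, 54.7% of cells with Lag3 and 27.8% of cells without it had Cd160 in the tumor library labelled Pdcd1fl/fl, but cells with Lag3 were deeper there, with a median of 12264.5 against 8896 UMIs.

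**Figure D4:**
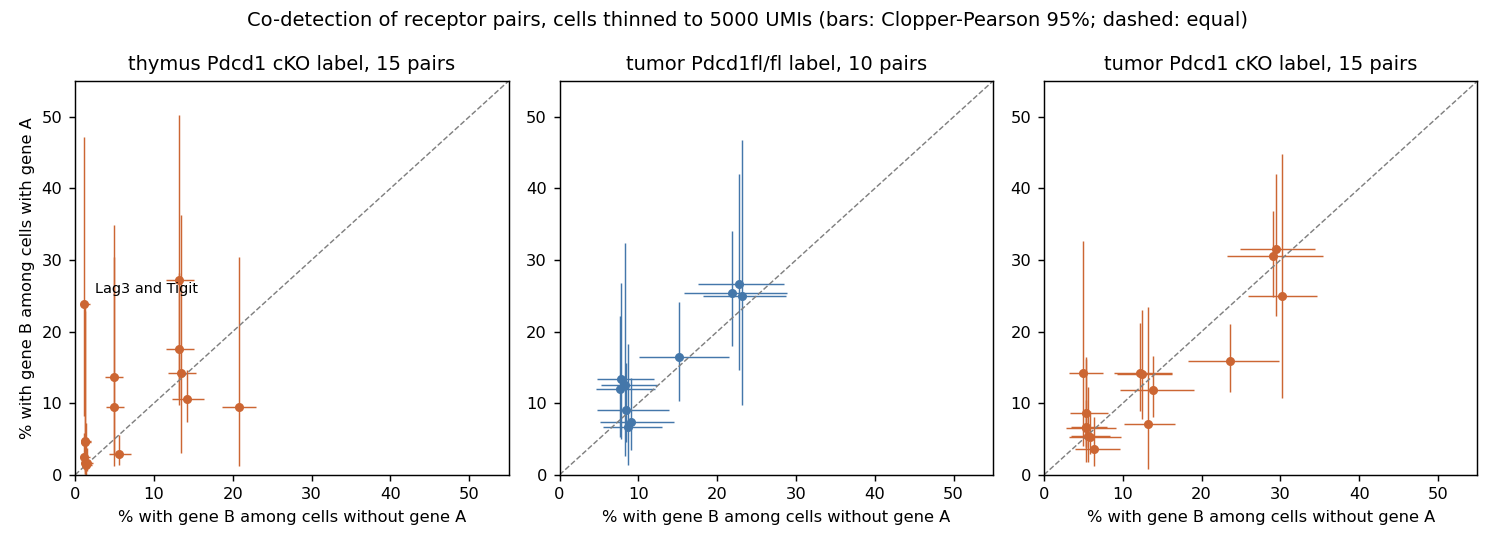
For each pair with at least 20 cells of each gene after thinning to 5000 UMIs, the percentage of cells with gene B among cells without gene A (horizontal) and with gene A (vertical), in the thymus library labelled Pdcd1 cKO and both tumor libraries, with Clopper-Pearson 95% intervals and the line of equal shares. Lag3 with Tigit in thymus (23.8% against 1.17%) is the pair whose intervals lie apart, and 0 pairs in the tumor libraries do. The thymus library labelled Pdcd1fl/fl had 1 pair with enough cells, Havcr2 with Entpd1, and its intervals overlapped.

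Pdcd1 was found in the same cells as several of the 7 genes in the libraries labelled Pdcd1 cKO. In thymus, 22 of 70 cells with Lag3 (31.4%, 20.9% to 43.6%) had Pdcd1 unthinned, against 3.002% (2.38% to 3.74%) of cells without Lag3, which were deeper (median 5448 against 4386 UMIs). After thinning to 1000 UMIs, Pdcd1 was found in 9.52% (4.202% to 17.9%) of thymic cells with Entpd1 against 0.706% (0.419% to 1.11%) of the rest, and in 4.13% (1.90% to 7.69%) of splenic cells with Cd160 against 0.980% (0.718% to 1.30%). In tumor, Pdcd1 was found in 14.3% and 12.9% of cells with Lag3 and in 14.7% and 15.7% of cells without it.

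Thymic cells with Lag3, Tigit or Cd38 were rich in effector transcripts. In the library labelled Pdcd1 cKO, the 9 effector genes (granzymes, perforin, chemokines, Ifng and Nkg7) summed to 8249 CPM in 70 cells with Lag3 and 1302 CPM in the rest, a log2 ratio of 2.66 (2.61 to 2.71), and 9 of 9 were higher with intervals above 0. For Tigit the ratio was 2.48 and for Cd38 2.46, again with 9 of 9 higher, and for Cd160 it was 1.43 (8 of 9) and for Cd101 1.404 (7 of 9). In the thymus library labelled Pdcd1fl/fl the effector ratio for Cd160 was 0.38 (0.22 to 0.54), with 3 of 6 measured genes higher and 1 lower. Exhaustion and activation factors were higher in thymic cells with Lag3 for 8 of 10 genes, with a summed ratio of 1.204. Cells with Entpd1 in the library labelled Pdcd1 cKO had an effector ratio of -0.03 and a cycling ratio of 0.40. In the one labelled Pdcd1fl/fl these were -0.31 (-0.41 to -0.21) and 0.04 (-0.02 to 0.09). Havcr2 marked the opposite end in the library labelled Pdcd1 cKO. In the 629 cells with Havcr2 there, 5 of 5 cycling genes were higher (1817 against 726 CPM, log2 ratio 1.32) and 8 of 9 effector genes lower (-0.96). These cells were deeper, with a median of 8418 against 4941.5 UMIs. In the thymus library labelled Pdcd1fl/fl, cells with Havcr2 had a cycling ratio of 0.47 and an effector ratio of -0.58.

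In spleen the effector contrast was smaller, and cells with Havcr2 had a cycling contrast in both libraries. Splenic cells with Lag3 in the library labelled Pdcd1 cKO had an effector ratio of 0.51 and a ratio of 0.81 for exhaustion and activation factors, cells with Cd160 an effector ratio of 0.45, and cells with Havcr2 a cycling ratio of 1.88. In the spleen library labelled Pdcd1fl/fl, 3 of 3 measured cycling genes were higher in 20 cells with Havcr2 (3.60), 35 with Cd160 (3.46) and 58 with Entpd1 (2.55), which were deeper by median (1693.5, 1495 and 1453 UMIs) than the rest. For Cd160 and Entpd1 this was not seen in the spleen library labelled Pdcd1 cKO, with more cells and cycling ratios of 0.01 and -0.05, and for Lag3, Tigit, Cd101 and Cd38 the intervals there held 0. These splenic cells include the cycling-like cluster of 87 cells led by Prtn3 and Mpo (19 and 68 per library). Without it, Havcr2 kept 19 and 141 UMIs, Cd160 35 and 458, and Entpd1 62 and 299. The 5 cycling genes summed to 178 UMIs in the library labelled Pdcd1fl/fl. The part of that cluster in the cycling contrasts was not tested. In tumor, cells with Entpd1 had a ratio for naive genes (Ccr7, Lef1, Tcf7) of -0.83 (-1.03 to -0.63) in the library labelled Pdcd1fl/fl and -1.41 (-1.83 to -1.01) in the one labelled Pdcd1 cKO. Their effector ratios were 0.56 and 0.14. Cells with Lag3 gave 0.37 and -0.14 for effector genes in the same order of libraries, so that the sign differed between them.

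The ligands of these receptors were read in the used cells of the same libraries. Enrichment for CD8 T cells selects against most of their usual sources, such as antigen-presenting cells. The 61 macrophage-like tumor cells and 15 B or plasma-like spleen cells were left out. The counts for these lists stand beside 14.1%, 12.0% and 13.9% of all genes past 2-fold in thymus, spleen and tumor. In thymus, 4 of 11 measured ligand genes were more than 2-fold higher in the library labelled Pdcd1 cKO and 0 lower, with a median log2 ratio of 0.23. H2-Eb1, an MHC class II chain, and Fgl1 each had 3 and 36 UMIs and a ratio of 2.00 (0.34 to 4.35). The lowest was Hmgb1, a chromatin protein that TIM-3 binds when it is released, with 1725 and 896 CPM and a ratio of -0.95. In spleen, 5 of 9 ligand genes were higher and 0 lower, with a median of 1.08, from Pecam1 (97 and 369 UMIs) at -0.07 to Fgl1 at 3.93 (1.399 to 9.26), which had 1 and 61 UMIs. In tumor, 4 of 8 were higher and 0 lower, with a median of 0.88, from Pvr at -0.63 (18 and 16 UMIs) to Lgals3, a galectin that binds LAG-3, at 1.78 (1.62 to 1.94), with 102 and 349 CPM.

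Of the partner and competing receptors, which include Cd226, Cd96 and Pdcd1, 3 of 7 measured genes were more than 2-fold higher in thymus, 2 of 7 in spleen and 1 of 7 in tumor, the last near the 13.9% of all genes, with 0 lower and medians of 0.74, 0.51 and -0.14. Apart from Pdcd1, the highest was Cd244a in each tissue, a receptor of natural killer and memory T cells. It had 5 and 47 UMIs in thymus (1.65) and 16 and 57 in tumor (1.38). In spleen it had 0 and 35 UMIs, which is 2.92-fold against a floor of 3 counts. The lowest were Btla in thymus (36 and 108 UMIs, 0.00) and in spleen (35 and 154 UMIs, 0.14) and Cd5 in tumor (162 and 118 UMIs, -0.91). Of the adenosine and NAD enzymes, which include Entpd1 and Cd38, 1 of 7 was higher in thymus, near the 14.1% of all genes, 4 of 7 in spleen and 1 of 6 in tumor, with 0 lower and medians of 0.34, 1.001 and 0.43. Of the adaptors and sheddases, 0 of 8 were past 2-fold in thymus and spleen and 2 of 8 were higher in tumor, with medians of -0.01, 0.41 and 0.46.

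Lists of programs that go with these receptors are set beside the same shares of all genes. Of exhaustion and activation factors, 3 of 10 were more than 2-fold higher in thymus, 4 of 10 in spleen and 0 of 9 in tumor, with 0 lower and medians of 0.66, 0.77 and 0.19. Of effector genes, 7 of 9 were higher and 1 lower in thymus, 8 of 9 higher in spleen and 4 of 9 higher in tumor, with medians of 1.77, 1.97 and 0.76. The naive genes had medians of 0.10 in thymus and -0.05 in spleen with 0 of 3 past 2-fold, and of -1.03 in tumor with 2 of 3 lower, Ccr7 at -2.44 (346 and 63.7 CPM) and Tcf7 at -1.03. Cycling genes had medians of -0.71, 0.07 and -0.36, with 2 of 5 lower in thymus and 0 of 5 past 2-fold in spleen and tumor. Leaving mitochondrial, ribosomal protein and Malat1 counts out of the totals moved the median of all genes by 0.18 in thymus, -0.13 in spleen and -0.13 in tumor, and median-of-ratios scaling moved it by -0.18 in spleen. Medians within those distances of 0 carry no direction.

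Over the 35 clusters of at least 20 cells from all tissues, the genes whose levels ran most like each member were ranked by Pearson r of log2(CPM + 10) as a description, since clusters share libraries and depth. The 35 include the melanoma-like and macrophage-like clusters, and the ranking without them was not made. Lag3 ran most like Pdcd1 (0.93), Ctla4 (0.89) and Nrn1 (0.88), and Tigit like Chst12 (0.82), Rgs16 (0.78) and Lag3 (0.76). Cd160 ran like Pglyrp1 (0.87), Sh2d2a (0.86) and Il2rb (0.83). Havcr2 differed from these, with Vdac1 (0.93), Hmga1 (0.92) and Hmga1b (0.92), and an r of 0.19 with Lag3 and -0.44 with Cd160. Entpd1 ran most like Lasp1 (0.83), Aida (0.81) and Bcl2l1 (0.78), Cd101 like Fasl (0.85), Padi2 (0.80) and Adam19 (0.75), and Cd38 like Ctsd (0.84), Fgl2 (0.83) and Efhd2 (0.82).

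On GRCm39, with GENCODE vM39, the genes lie on 6 chromosomes. Lag3 (ENSMUSG00000030124) is at chr6:124881320-124888765 on the minus strand, Havcr2 (ENSMUSG00000020399) at chr11:46345673-46374149 on the plus strand, and Tigit (ENSMUSG00000071552) at chr16:43469100-43484509 on the minus strand. Cd160 (ENSMUSG00000038304) at chr3:96706079-96736667 and Cd101 (ENSMUSG00000086564) at chr3:100899506-100936872 are both on the minus strand of chromosome 3. Entpd1 (ENSMUSG00000048120) is at chr19:40600810-40731585 and Cd38 (ENSMUSG00000029084) at chr5:44025875-44069717, both on the plus strand, with Bst1, the gene most like Cd38 in function, 24546 bases away on the same strand. Of genes that overlap them and are in the data, Pdzk1 over Cd160 had 27 UMIs, Gm50132 over Entpd1 had 5, and Gm16014 and Gm16015 over Cd38 had 2 and 0.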

How the data were processed

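The authors deposited raw UMI counts per gene and barcode, made with the PIPseq pipeline on GRCm39; the unit is a count, and libraries were aligned by Ensembl gene ID, with genes named by the symbols in the data. Their own analysis used SCTransform, 20 principal components, Louvain clusters and Harmony in Seurat 4.3.0. The cell filter of the study was used: 500 genes or more, 1000 UMIs or more, and no more than 20% mitochondrial counts. The 2 libraries of a tissue were merged without Harmony and clustered with SCTransform, 20 principal components and Louvain at resolution 0.8 (Seurat 5.3.0, sctransform 0.4.2, R 4.3.3), leaving out the 7 genes and Pdcd1. Clusters were named by marker lists, with at least 3 markers in at least 10% of cells and 2-fold over other cells; the margin that named the melanoma-like cluster was set after seeing the data. Clusters named melanoma-like, macrophage-like, or B or plasma-like (169 and 92 tumor cells and 15 spleen cells) were left out. Doublets were not called by a tool; the 5% of cells with most UMIs were left out as an alternative. UMIs were summed per library and given as CPM with exact Poisson intervals, ratios with exact conditional binomial intervals and shares with Clopper-Pearson intervals, all at 95% (Python 3.11.15, numpy 2.4.6, scipy 1.17.1, pandas 2.3.3, matplotlib 3.10.9). No test was run. A gene counted as past 2-fold with at least 20 UMIs over both libraries. Genes of a list were named where their ratio was the highest or lowest in a tissue, ties included; Cd4, Foxp3 and Tcf7 were singled out after their values were seen. The members and lists were chosen with earlier results of these data known. The lists were ligands, partner and competing receptors, adenosine and NAD enzymes, adaptors and sheddases, exhaustion and activation factors, effector, naive and cycling genes.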

Additional observations from a re-analysis of the deposited data

Results flagged for a closer look

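In 2 genes the direction differed between tissues, with 95% counting intervals on opposite sides of 0. The log2 ratio of Havcr2 for the library labelled Pdcd1 cKO over the one labelled Pdcd1fl/fl was 0.91 in spleen and -0.52 in thymus. That of Tigit was 1.46 in thymus and -0.58 in tumor. Neither contrast held under every alternative. Havcr2 was 0.09 in thymus without the cluster of 512 cells and 0.07 in spleen with the stricter filter, and Tigit was 0.24 in thymus without the cluster of 200 cells and 0.15 in tumor with all filtered cells. With 1 library per label and tissue, the difference between tissues was not tested for either gene.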

How the results depend on the processing

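No paired analysis was possible because each label has 1 library per tissue and no result comes from a test. Counts of members past 2-fold stayed within 1.5 times the reported ones in 23 of 23 alternatives in thymus, 21 of 23 in spleen and 6 of 13 in tumor, and medians stayed within the interval of the middle gene in 22 of 23, 23 of 23 and 10 of 13. In spleen, 2 members were past 2-fold with the stricter cell filter (700 genes, 1500 UMIs, 10% mitochondrial counts) and 2 without the cluster of 1058 cells. In tumor, 1 was past 2-fold with no cell filter, with all filtered cells, with totals without mitochondrial, ribosomal protein and Malat1 counts, and without the 5% of cells with most UMIs. The tumor median was 0.59 with no filter and 0.59 with all filtered cells, and the ratio of Tigit there turned to 0.15 in both. Alternatives chosen after seeing the data were the following. Without the thymic cluster of 200 cells the thymus median was 0.26. Without the tumor cluster of 258 cells 0 of 6 measured members were past 2-fold (Cd101, at 1.30, fell to 13 UMIs and was not counted), without that of 124 cells 0, without that of 137 cells 1, and without that of 221 cells the median was 0.54. Without thymic clusters rich in Dntt the ratio of Cd160 was -0.39. Leaving out 1 cluster turned the ratios of Havcr2 (0.09) and Cd160 (-0.42) in thymus without the cluster of 512 cells, of Entpd1 in spleen without that of 1058 cells (-0.24) and of Havcr2 in tumor without that of 124 cells (-0.01). The causes were not tested. Over the other alternatives, ratios of single members left their counting interval in 7 of 56 alternatives in thymus, 3 of 49 in spleen and 9 of 49 in tumor. Changes of sign within the interval, such as those of Havcr2 (-0.06 and -0.02) in tumor under the other scalings, are not among these. Shares of cells with a member moved in 101 of 238 cases. At 1000 UMIs per cell a gene at a few CPM is mostly missed, so a cell without a UMI may still express it.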
